A study of Rattus norvegicus with 4 samples.

Results

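Hepcidin and its regulation of iron were examined through 10 genes of the 16992 genes measured in rat liver. *Hamp*, which encodes hepcidin, was chosen by its lower TPM value after 6 h of desflurane than in the desflurane control, and this difference is therefore given as a description. The other genes, *Tfr2*, *Tfrc*, *Hfe*, *Tmprss6*, *Bmp6*, *Id1*, *Smad7*, *Slc40a1*, and *Fth1*, were picked by name as parts of hepcidin control and iron handling. Earlier results of these data were known when they were picked. All 10 were found by their gene ID in each library, and all 10 exceeded 2 TPM (transcripts per 1000000 transcripts) in each. The libraries were made from the livers of 4 wild type male Wistar rats, 6 weeks old when purchased, with 1 rat for each condition. A sevoflurane 6 h rat inhaled 4.5% sevoflurane and a desflurane 6 h rat inhaled 6% desflurane for 6 h, whereas the sevoflurane control and the desflurane control inhaled the same agent only until they lost consciousness. All of them had been kept from food and water for 2 h before the experiment and were sacrificed at about the same time of day. Both controls had thus also been exposed briefly to an agent. By this schedule, the 6 h rats also went without food and water for the 6 h of anesthesia. The agents were given in oxygen-enriched gas, which the 6 h rats thus breathed for longer. Neither the longer time without food nor the longer time in this gas can be told apart from the anesthesia. With 1 library for each condition, no difference was tested and no p-value or error was calculated.

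Hepcidin is a peptide hormone secreted by hepatocytes. It binds ferroportin, the iron exporter encoded by *Slc40a1*, and causes its degradation, so that less iron enters the blood from the gut, from macrophages, and from the liver. Transcription of *Hamp* is raised by bone morphogenetic proteins (BMPs), mainly BMP6 and BMP2 from liver endothelial cells, through SMAD proteins, and by interleukin-6 through STAT3. It is also known to be lowered by growth signals, erythropoietic demand, and the membrane protease encoded by *Tmprss6*.

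The sequence before *Hamp* is shown because both of these arms act on it. RefSeq promoters, taken from the GRCr8 build, were present for 7 of the 10 genes, and the 250 bases before the annotated start were read from 5′ to 3′. Capitals mark GGCGCC, the core of the BMP response element, and TTCNNNGAA, a STAT site, both searched on either strand. The promoters of *Id1* and *Smad7*, known targets of BMP and SMAD signaling, are set beside it for comparison. These windows are at chr1:95300272-95300521 on the minus strand for *Hamp*, at chr3:161671314-161671563 on the plus strand for *Id1*, and at chr18:71263258-71263507 on the plus strand for *Smad7*.
Hamp: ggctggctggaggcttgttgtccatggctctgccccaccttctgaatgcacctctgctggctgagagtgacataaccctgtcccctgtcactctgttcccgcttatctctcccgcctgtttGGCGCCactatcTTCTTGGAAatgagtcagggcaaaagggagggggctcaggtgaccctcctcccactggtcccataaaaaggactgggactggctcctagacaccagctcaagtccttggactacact
Id1: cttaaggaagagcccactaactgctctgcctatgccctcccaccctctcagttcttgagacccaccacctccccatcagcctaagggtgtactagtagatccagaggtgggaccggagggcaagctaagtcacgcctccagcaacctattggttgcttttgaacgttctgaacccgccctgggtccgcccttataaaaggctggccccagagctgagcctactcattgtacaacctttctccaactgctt
Smad7: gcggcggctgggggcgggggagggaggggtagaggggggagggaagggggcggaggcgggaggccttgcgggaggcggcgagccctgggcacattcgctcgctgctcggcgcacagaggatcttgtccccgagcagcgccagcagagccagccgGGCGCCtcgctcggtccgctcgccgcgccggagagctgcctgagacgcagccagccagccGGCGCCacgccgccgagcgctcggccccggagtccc
*Hamp* held 1 match to the BMP response element core, from -129 to -124 relative to the base after the window, and 1 match to the STAT site, from -117 to -109, which do not overlap. In *Smad7*, the BMP response element core was found from -96 to -91 and from -36 to -31, and the *Id1* window held neither motif. *Tfrc* had 1 match to the BMP core, and the windows of *Tfr2*, *Bmp6*, and *Slc40a1* had no match to either motif. Among 33469 rat promoters of the same length, 8.69% held the BMP core, 7.67% held the STAT site, and 0.379% held both. CAGTG, the loop of the iron-responsive element read on the sense strand only, was found in 35.0% of the full windows of 300 bases and in none of the 7 genes. The element acts in the transcript, but 250 of these 300 bases lie before the annotated start. The search therefore cannot show whether a transcript carries the element, and *Fth1* was not among the 7 genes. A match is a description of letters in these windows and does not show that a factor was bound.

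In the RNA, *Hamp* showed the widest range of the 10 genes. The gene is at chr1:89368021-89369960 on the minus strand of rn6, the build of the files. Its TPM value, a level scaled for gene length and library size, was 1487 for the sevoflurane control, 458 for sevoflurane 6 h, 893 for the desflurane control, and 30.4 for desflurane 6 h. Both anesthetized livers were below both controls, and the desflurane 6 h liver was far below the other 3. In bulk tissue, fewer cells that make a transcript and less of it per cell cannot be told apart. *Hamp* was the gene with the 69th highest TPM value in the sevoflurane control and the 96th highest in the desflurane control, and it was 205th after 6 h of sevoflurane and 2723rd after 6 h of desflurane. The average coverage of its exons was 2673, 774, 1672, and 51.2 reads per base in the order given above, so that the lowest value did not rest on a few reads.

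Relative to its own control, *Hamp* was 29.4-fold lower after 6 h of desflurane, a log2 change of -4.88. Of the 9572 genes above 2 TPM in the desflurane control, 3 had a larger decrease. Compared with the sevoflurane control instead, the desflurane 6 h liver was 49.0-fold lower, and 7 of 9531 genes had a larger decrease. These are the values behind the choice of *Hamp*.

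After 6 h of sevoflurane, which was not used in that choice, *Hamp* was 3.25-fold lower than in the sevoflurane control, a log2 change of -1.70. In this comparison, 117 of 9531 genes had a larger decrease. Relative to the desflurane control, the same library was 1.95-fold lower, which is within the 2-fold limit used for calls. The 2 controls differed 1.67-fold in *Hamp*, with the desflurane control lower, and this is the only view of the difference between rats under nearly the same condition. The order of the levels was therefore the sevoflurane control, the desflurane control, sevoflurane 6 h, and desflurane 6 h. The step between the controls and the step from the desflurane control to sevoflurane 6 h were similar in size, whereas the step from sevoflurane 6 h to desflurane 6 h was 15.1-fold and was exceeded by a decrease in 2 of 9474 genes. That last step shares the desflurane 6 h library with the choice of the gene.

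**Figure D1:**
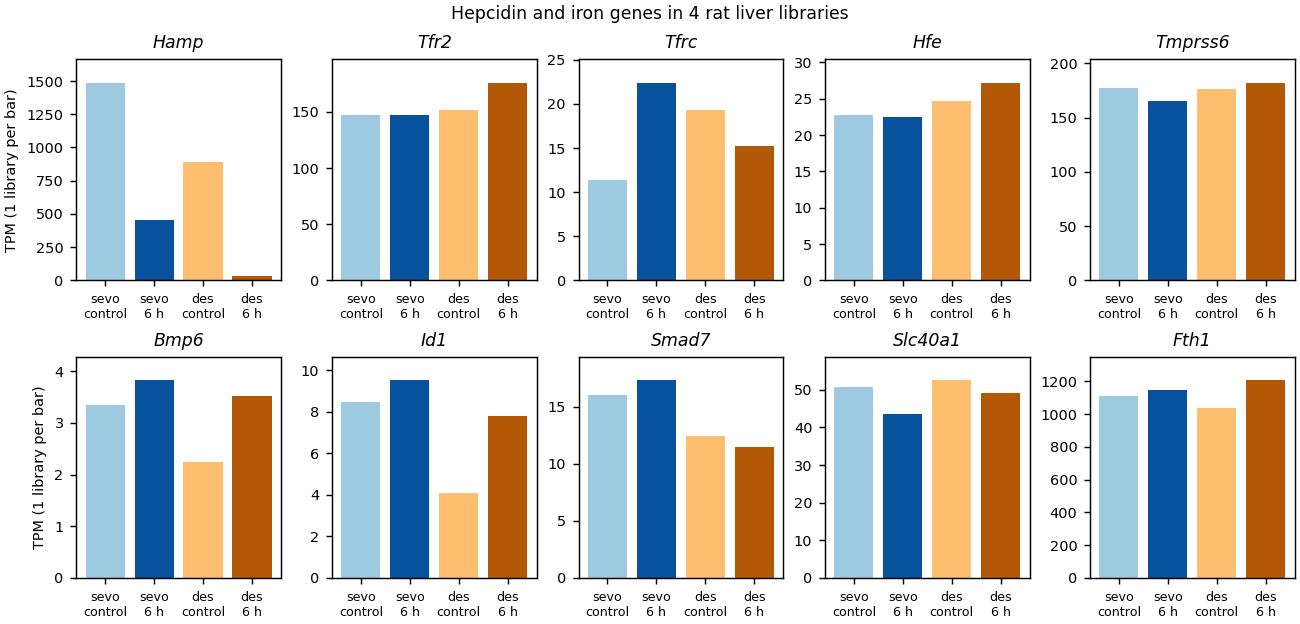
TPM values (vertical axes, starting at 0, each with its own scale) of the 10 genes in the 4 libraries, 1 library per bar, without error bars because each condition has 1 rat. *Hamp* is lowest after 6 h of desflurane (30.4) and highest in the sevoflurane control (1487), whereas *Tmprss6* stays between 165 and 182.

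A gene was called here when the larger of its TPM values exceeded 2 and was more than 2 times the smaller. Relative to the own control, sevoflurane 6 h had 1 of the 10 genes, *Hamp*, called lower, compared with 3.38% of all genes that could be called lower. It had 0 of 10 called higher, compared with 2.30% of all genes that could be called higher. Desflurane 6 h had *Hamp* called lower, compared with 1.53% of all genes, and 0 of 10 called higher, compared with 2.84%. The *Hamp* call with desflurane follows from the choice of the gene, and nothing is read from that count. When sevoflurane 6 h was compared with the desflurane control, *Id1* alone was called higher (2.60% of all genes) and 0 of 10 genes were called lower (2.64%). When desflurane 6 h was compared with the sevoflurane control, *Hamp* alone was called lower (1.64%) and 0 of 10 were called higher (2.89%). Directly between the 6 h livers, *Hamp* was called lower with desflurane (1.21%) and 0 of 10 were called higher (2.80%). A count of 1 gene in 10 says little beside these shares. The median log2 change of the 10 genes on the log2(TPM + 1) scale was 0.03 for sevoflurane and 0.09 for desflurane, beside 0.05 and 0.11 over every gene that exceeded 2 TPM in either library.

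**Figure D2:**
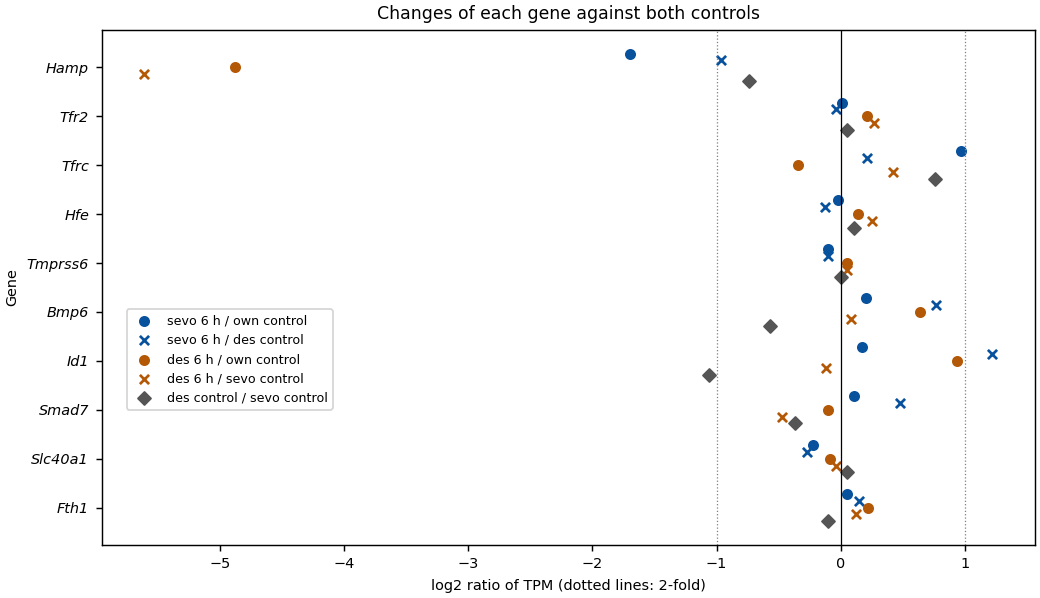
Log2 ratios of TPM values (horizontal axis) for the 10 genes (vertical axis), with each 6 h library against its own control (circles) and the control of the other agent (crosses), and the desflurane control against the sevoflurane control (diamonds). *Hamp* lies left of 0 in each ratio, and the ratios of *Tfrc*, *Bmp6*, and *Id1* move with the control that is used.

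The genes that set the sensitivity of hepatocytes to iron differed little between the libraries. In rn6, the files place *Tfr2* at chr12:22177382-22194299 (minus strand), *Hfe* at chr17:43661276-43669327 (plus strand), and *Tmprss6* at chr7:119659324-119689938 (minus strand). *Tfr2*, which encodes transferrin receptor 2, a sensor of iron-loaded transferrin on hepatocytes, was at 147 TPM for the sevoflurane control, 147 for sevoflurane 6 h, 152 for the desflurane control, and 176 for desflurane 6 h. *Hfe*, whose product associates with both transferrin receptors and whose loss leads to low hepcidin, had TPM values of 22.8, 22.5, 24.7, and 27.2 in the same order. *Tmprss6* encodes matriptase-2, which cleaves the BMP coreceptor hemojuvelin and thereby restrains hepcidin, and its TPM values were 177, 165, 176, and 182. The highest and lowest values of these genes differed 1.20-fold for *Tfr2*, 1.21-fold for *Hfe*, and 1.11-fold for *Tmprss6*, and desflurane 6 h had the highest value in each of them, although with FPKM *Tmprss6* was lower there than in the sevoflurane control (log2 change of -0.21). Over 9136 genes that exceeded 2 TPM in every library, the median log2 change was itself 0.12 with desflurane and 0.05 with sevoflurane. Relative to its own control, desflurane 6 h differed by log2 changes of 0.21 for *Tfr2*, 0.14 for *Hfe*, and 0.05 for *Tmprss6*.

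*Bmp6*, *Id1*, and *Smad7*, the ligand and the target genes of BMP signaling among the 10 genes, were low in abundance. In rn6, the files place *Bmp6* at chr17:26955142-27112820 (minus strand), *Id1* at chr3:148215588-148216715 (plus strand), and *Smad7* at chr18:71395830-71424159 (plus strand). *Bmp6*, the ligand that links liver iron to hepcidin, was at 3.34 TPM for the sevoflurane control, 3.82 for sevoflurane 6 h, 2.25 for the desflurane control, and 3.51 for desflurane 6 h. Both 6 h libraries were above both controls, except that desflurane 6 h was below the sevoflurane control with FPKM (-0.18) or median-of-ratios scaling (-0.03, both log2 changes of *Bmp6*), and the coverage was only between 4.21 and 6.47 reads per base, and the difference between the controls was 1.48-fold. *Id1*, a transcriptional regulator and direct target of BMP and SMAD signaling, had TPM values of 8.48, 9.52, 4.08, and 7.80 in the same order. The desflurane control stood apart as the lowest, and the other 3 libraries were close to each other. As a result, *Id1* was 1.91-fold higher after 6 h of desflurane than in its own control but 1.09-fold lower than in the sevoflurane control. *Id1* was also the 1 gene of 10 called between the controls, where it was 2.08-fold lower in the desflurane control (1.20% of all genes were called lower and 1.19% higher in that comparison, with 0 of 10 higher). *Smad7*, which encodes an inhibitory SMAD induced by the same pathway, had TPM values of 16.0, 17.3, 12.4, and 11.5. Both libraries of the sevoflurane pair were above both libraries of the desflurane pair, and the own control ratios were 1.08-fold with sevoflurane and 0.932-fold with desflurane. In the desflurane 6 h liver, where *Hamp* was lowest, the log2 change against the own control was 0.94 for *Id1* and -0.10 for *Smad7*. Against the sevoflurane control, it was -0.12 for *Id1* and -0.47 for *Smad7*. Against sevoflurane 6 h, it was -0.29 for *Id1* and -0.58 for *Smad7*, and *Smad7* was at its lowest in the desflurane 6 h liver. None of these values passed the 2-fold limit.

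The genes that carry and store iron differed by less than 2-fold in each comparison with a control. In rn6, the files place *Tfrc* at chr11:71397423-71419263 (minus strand), *Slc40a1* at chr9:52894365-52912293 (minus strand), and *Fth1* at chr1:226030940-226033228 (plus strand). *Tfrc*, which encodes transferrin receptor 1, the uptake receptor for transferrin, was at 11.4 TPM for the sevoflurane control, 22.4 for sevoflurane 6 h, 19.3 for the desflurane control, and 15.2 for desflurane 6 h. The sevoflurane control was the lowest of the 4, and the 6 h libraries lay on either side of the desflurane control. Sevoflurane 6 h was 1.97-fold higher than its own control, just within the limit, but 1.16-fold higher than the desflurane control. *Slc40a1*, the target of hepcidin, had TPM values of 50.7, 43.6, 52.5, and 49.2, and *Fth1*, the heavy chain of the iron store ferritin, had values of 1110, 1146, 1036, and 1206. *Slc40a1* was below both controls in both 6 h libraries, by at most 1.20-fold, and *Fth1* was above both controls, by at most 1.16-fold, except that with FPKM desflurane 6 h was below the sevoflurane control (log2 change of -0.13) and sevoflurane 6 h was not above it. Synthesis of ferritin, ferroportin, and transferrin receptor 1 is known to be controlled by iron at the level of translation or RNA stability, and the files measure RNA only.

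Both 6 h livers were below both controls in 2 of the 10 genes, *Hamp* and *Slc40a1*, compared with 13.3% of 9993 genes that exceeded 2 TPM in any library. Both were above both controls in the TPM values of *Bmp6* and *Fth1*, with the exceptions under other scalings given above, compared with 33.3% of all genes. The difference between an agent and its own control was larger than the difference between the 2 controls in 4 of the 10 genes with sevoflurane and in 7 of 10 with desflurane. The direction was the same with either control in 9 of 10 genes with sevoflurane, with *Tfr2* as the exception, and in 8 of 10 with desflurane, with *Tfrc* and *Id1* as the exceptions. These comparisons share the 6 h library. *Hamp*, chosen for its decrease with desflurane, is among the 7 genes, and *Tmprss6* is among them with a log2 change of only 0.05. The same counts over all genes were not calculated, so nothing is read from these counts.

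**Figure D3:**
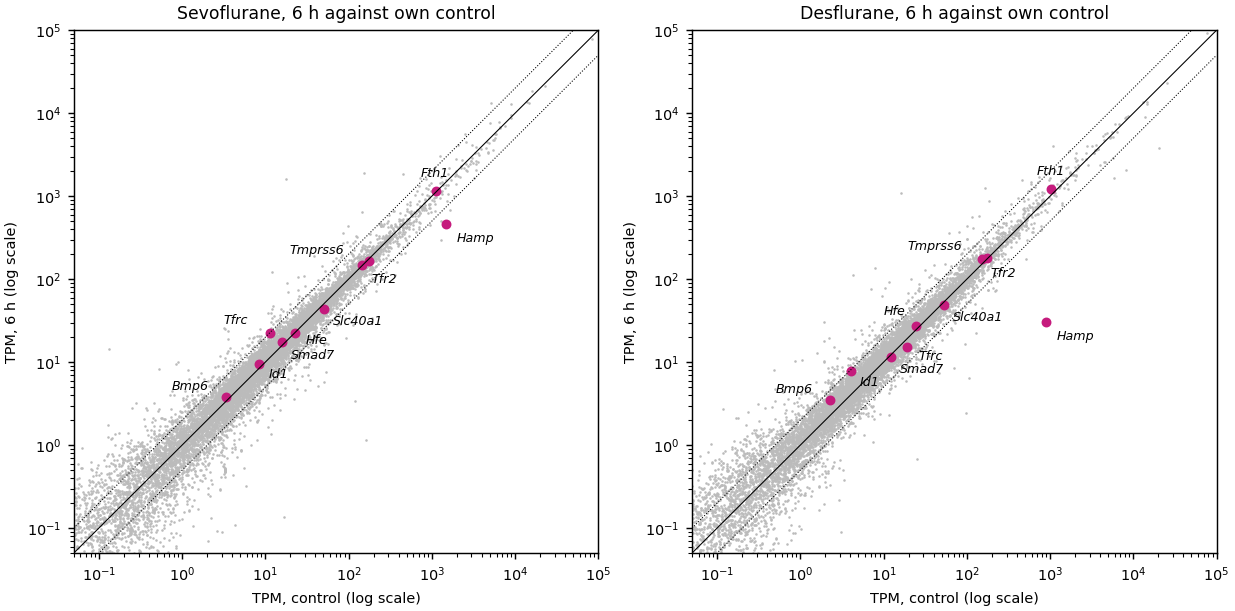
TPM values of all genes in the control (horizontal axis, log scale) and after 6 h (vertical axis, log scale) for sevoflurane (left) and desflurane (right), with the 10 genes in color, the solid line at equal values, and dotted lines at 2-fold. *Hamp* is below the lower dotted line in both panels, at 458 and 30.4 TPM after 6 h, and the other 9 genes lie between the dotted lines.

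The further genes of hepcidin control and iron metabolism were taken from 6 lists with 70 genes, of which 66 were found in the files. Against the own control, 2 of the 66 genes were called higher and 2 lower with sevoflurane, beside 2.30% and 3.38% of all genes. With desflurane, 2 were called higher and 2 lower, beside 2.84% and 1.53% of all genes. On the log2(TPM + 1) scale, their median change was 0.01 for sevoflurane and 0.11 for desflurane, beside 0.05 and 0.11 over all genes. Both 6 h livers were below both controls in 12 of the 66 genes (18.2%), beside 13.3% of all genes, and above both controls in 22 (33.3%), beside 33.3% of all genes. The call shares of all genes given here also stand beside the calls of single lists below, where so few calls say little.

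**Figure D4:**
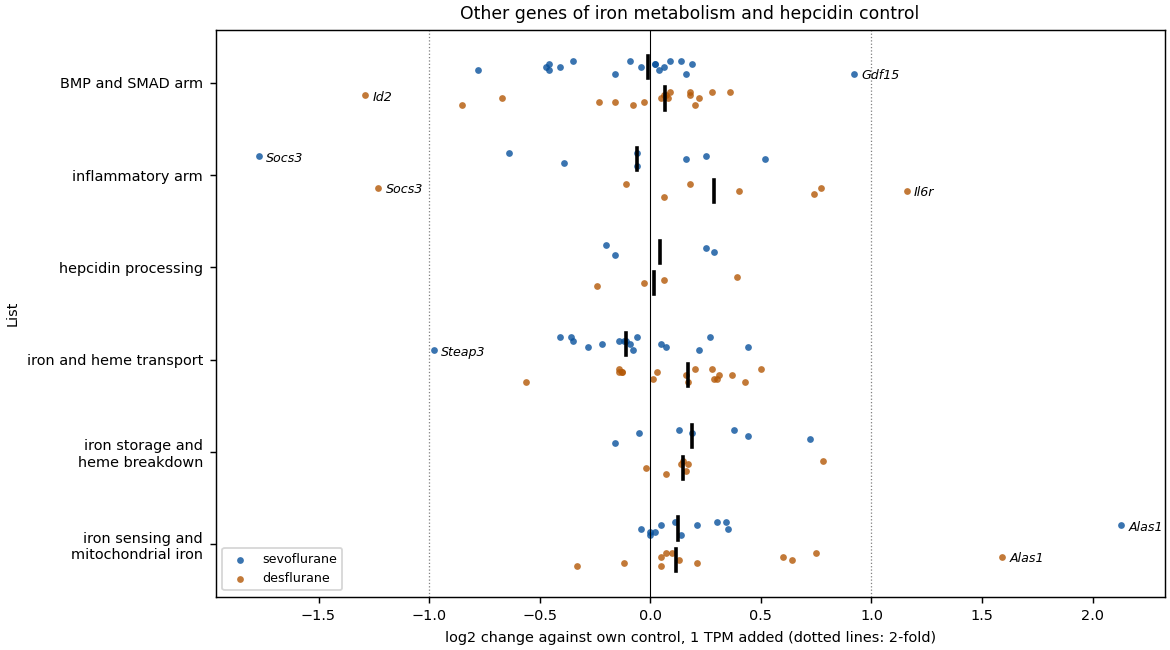
Log2 changes against the own control, with 1 TPM added (horizontal axis), of 66 genes in 6 lists (vertical axis) for sevoflurane (blue) and desflurane (brown), with the list median as a bar and dotted lines at 2-fold. The medians lie between -0.11 and 0.29, and genes past the call rule are labeled, of which *Alas1* and *Socs3* were called with both agents. The rule itself adds nothing to the TPM values, so *Gdf15* and *Steap3* are labeled inside the dotted lines.

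In the inflammatory arm, where interleukin-6 acts through its receptor and STAT3, 1 of 8 genes was called lower with sevoflurane, and 1 was called lower and 1 higher with desflurane. *Socs3*, a feedback inhibitor that STAT3 itself induces, was at 15.2 TPM for the sevoflurane control, 3.74 for sevoflurane 6 h, 24.2 for the desflurane control, and 9.76 for desflurane 6 h. Like *Hamp*, it was lower in both 6 h livers than in both controls, by 4.06-fold with sevoflurane and 2.48-fold with desflurane relative to the own controls. Against the sevoflurane control, desflurane 6 h was 1.55-fold lower, which is not a call. Unlike *Hamp*, it was lowest after 6 h of sevoflurane, and desflurane 6 h was 2.61-fold higher than sevoflurane 6 h. *Il6r*, which encodes the ligand-binding chain of the interleukin-6 receptor, had TPM values of 57.8, 64.9, 44.1, and 99.8 in the same order, a 2.27-fold increase with desflurane against its own control. Against the sevoflurane control, the log2 change of *Il6r* was 0.79 and was not a call. *Il6st*, the signaling chain, had log2 changes of -0.39 with sevoflurane and 0.75 with desflurane. The most abundant genes of this list, *Creb3l3* and *Cebpa*, encode transcription factors that also act on *Hamp*. With desflurane, the log2 change was 0.77 for *Creb3l3* and 0.18 for *Cebpa*, and neither was called.

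In the BMP and SMAD arm, 1 of 18 genes was called higher with sevoflurane and 1 was called lower with desflurane. *Id2*, a relative of *Id1*, was at 133 TPM for the sevoflurane control, 96.6 for sevoflurane 6 h, 125 for the desflurane control, and 50.7 for desflurane 6 h. Both 6 h livers were below both controls, as for *Hamp*, and the decrease with desflurane was 2.47-fold. *Gdf15*, which encodes a stress-induced cytokine of the TGF-beta superfamily, rose 2.21-fold with sevoflurane, from 2.76 to 6.12 TPM. However, its value in the desflurane control was 8.91, which was above both 6 h libraries. *Fgl1*, whose product binds BMPs and limits hepcidin, had log2 changes of -0.42 with sevoflurane and 0.22 with desflurane. *Fkbp1a*, which holds BMP receptors inactive, had log2 changes of 0.04 and -0.17. *Hjv*, the BMP coreceptor that *Tmprss6* acts on, and *Bmp2*, the other endothelial ligand, were named after their values were seen. *Hjv* had TPM values of 67.0, 52.3, 62.3, and 75.8 in the order sevoflurane control, sevoflurane 6 h, desflurane control, and desflurane 6 h, and *Bmp2* had values of 13.3, 15.0, 14.1, and 16.4. Both were highest after 6 h of desflurane, whereas *Id2* and *Fkbp1a* of the same list were lowest there. As with *Id2*, both 6 h livers were below both controls in *Id3*, *Id4*, *Bambi*, and *Smad1*. They were above both controls in *Bmp2*, *Bmpr2*, *Smad4*, and *Smad5*. Apart from *Id2*, none of these was called against its own control. Outside this list, both 6 h livers were also below both controls in *Jak2*, *Socs3*, *Spint2*, *Steap3*, *Steap4*, *Slc39a8*, and *Fbxl5*. Of all genes, 13.3% were below both controls and 33.3% were above both, so the pattern is not particular to this list. The log2 changes with sevoflurane and desflurane were -0.49 and -0.68 for *Id3*, and -0.79 and -0.03 for *Id4*.

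No gene was called among the 4 proteases and inhibitors that process hepcidin and hemojuvelin under the 2-fold rule. *Furin*, which cuts prohepcidin, had TPM values of 199, 173, 167, and 218 in the same order. *Spint2*, which encodes an inhibitor of matriptase-2, was between 104 and 124 TPM, and *Pcsk7*, a further convertase, between 10.4 and 12.5 TPM. Among 17 genes of iron and heme transport, 1 was called lower with sevoflurane and 0 with desflurane. This was *Steap3*, the reductase that frees iron for export from endosomes, with TPM values of 24.5, 11.9, 31.2, and 20.9. The most abundant genes of the list encode plasma carriers. *Tf*, transferrin, was between 21343 and 25582 TPM. *Hpx*, hemopexin, was between 4357 and 5747 TPM, and *Hp*, haptoglobin, between 4346 and 5285 TPM. None of them differed from a control by as much as 1.5-fold.

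Among 7 genes of iron storage and heme breakdown, 0 were called with either agent. *Ftl1*, the ferritin light chain, was at 3081 TPM for the sevoflurane control, 4187 for sevoflurane 6 h, 3606 for the desflurane control, and 3563 for desflurane 6 h. *Blvrb* and *Pcbp2*, a biliverdin reductase and an iron chaperone, differed from their own controls by log2 changes between -0.05 and 0.20. In the list of iron sensing and mitochondrial iron, *Alas1* was the 1 of 12 genes called, and it was called with both agents. *Alas1* encodes the rate-limiting enzyme of heme synthesis in the liver, and its TPM values were 98.2, 433, 100.2, and 304 in the same order. *Aco1*, the iron-responsive element binding protein that also acts as cytosolic aconitase, had log2 changes of 0.11 with sevoflurane and 0.10 with desflurane. *Epas1*, the hypoxia factor that controls iron uptake genes in the gut, had log2 changes of 0.35 and 0.65.

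The genes with the pattern most like *Hamp* were sought among 96 genes, *Hamp* included, with a mean above 2 TPM and a range of at least 2 on the log2 scale, by Pearson's r of log2(TPM + 1) over the 4 libraries. The 5 closest were *Esd* (r = 0.95), *Ppp1r3b* (0.92), *Gadd45g* (0.81), *Dusp1* (0.79), and *Slc34a2* (0.78), which is a description over 4 points of unlike condition. *Ppp1r3b*, which targets a phosphatase to glycogen, was at 95.4 TPM for the sevoflurane control, 83.7 for sevoflurane 6 h, 144 for the desflurane control, and 33.9 for desflurane 6 h. *Gadd45g*, a gene of stress and growth arrest, had values of 43.2, 5.17, 97.6, and 2.43 and was the 1 of these 5 genes called lower with sevoflurane as well as desflurane against the own controls. *Dusp1*, a phosphatase of MAP kinases, had values of 52.7, 58.4, 127, and 22.4, and *Slc34a2*, a phosphate transporter, had values of 21.4, 12.1, 46.3, and 7.38. Each of the 5 was lowest after 6 h of desflurane, which the choice by likeness to *Hamp* favors, so nothing is read from it. In only *Esd*, as in *Hamp*, was the sevoflurane control above the desflurane control. *Esd*, which encodes esterase D, had TPM values of 107, 114, 94.0, and 16.4, but its coverage was 36.1, 38.2, 33.9, and 27.6 reads per base. The ratio of FPKM to coverage was 5.31, 5.03, and 5.18 times the median of the library in the first 3 libraries and equal to it in the last. Coverage was also lowest after 6 h of desflurane, but the large size of the difference in TPM was not seen in it. The same ratio was within 1% of the library median for all 10 genes of iron regulation in each library, and it departed by more than that in 4 of the 66 further iron genes, *Spint2*, *Cp*, *Ncoa4*, and *Hmox2*.

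**Figure D5:**
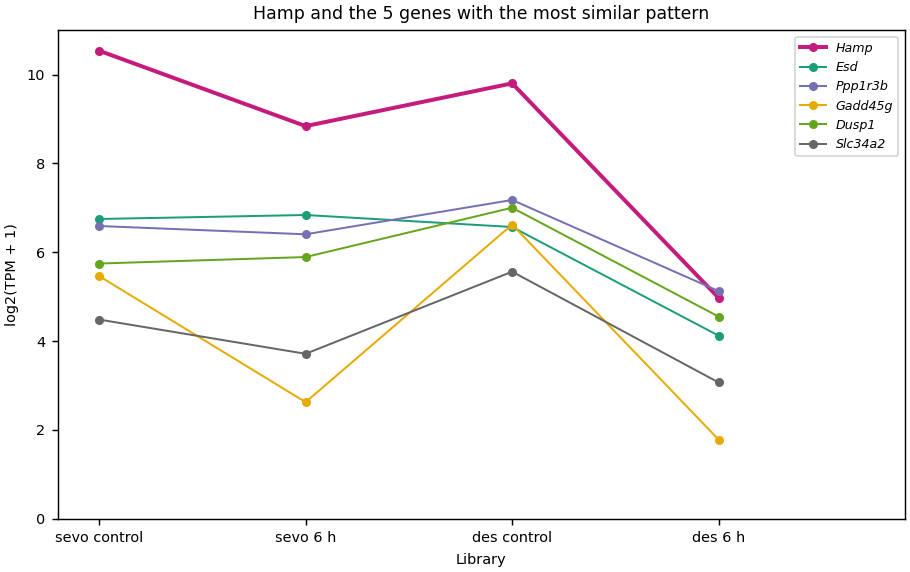
Log2(TPM + 1) (vertical axis) of *Hamp* and the 5 genes with the highest Pearson's r to it, over the 4 libraries (horizontal axis), with lines that only join the points of 1 gene. Each of the 6 genes is lowest after 6 h of desflurane, which the choice by likeness to *Hamp* favors. The *Esd* line departs from its coverage as given in the text.

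The depth derived from the ratio of FPKM to coverage was between 4.47 and 5.40 Gb of aligned sequence per library. Markers of cell types were examined because the RNA came from whole tissue. The 8 hepatocyte markers, led by *Alb*, *Ahsg*, and *Ttr*, summed to 135335 TPM for the sevoflurane control, 129115 for sevoflurane 6 h, 127774 for the desflurane control, and 143606 for desflurane 6 h. They were by far the most abundant of the 5 marker lists, as the liver label of the libraries would have them. Set against this sum, *Hamp* was 10991, 3545, 6990, and 212 per 1000000 of hepatocyte marker TPM in the same order, which kept the order of the libraries. The 7 of 10 endothelial markers found, led by *Fcgr2b*, *Kdr*, and *Lyve1* and of interest as *Bmp6* comes from these cells, summed to between 283 and 325 TPM, with the highest value after 6 h of desflurane. The 7 of 8 stellate cell markers found, led by *Col3a1*, *Lrat*, and *Reln*, summed to between 280 and 317 TPM. The 8 of 9 Kupffer cell markers found, led by *C1qc*, *Clec4f*, and *C1qb*, summed to 677, 408, 530, and 622 TPM. Of these, *Cd5l*, *Marco*, and *Adgre1* were called lower with sevoflurane against its own control, beside 3.38% of all genes. All 8 were lower in that comparison, in which *Hamp* was lower too, and their part in the result was not tested. The 9 of 11 erythroid markers found, led by *Hba-a2*, *Hba1*, and *Hbb*, summed to 132, 93.3, 97.1, and 56.2 TPM. *Alas2* was called lower with sevoflurane (3.38% of all genes) and *Hbb* lower with desflurane (1.53%), each against its own control. The globin genes share reads with near-identical copies. Against the sevoflurane control, all 9 were lower after 6 h of desflurane and 6 were called lower (1.64% of all genes). Their median was -1.05 on the log2(TPM + 1) scale. Against the desflurane control, 1 was called higher (2.60%) and 0 lower (2.64%) after 6 h of sevoflurane, with a median of 0.02. The desflurane control was itself below the sevoflurane control in all 9, with 2 called lower (1.20%) and a median of -0.47. Against its own control, desflurane 6 h was lower in 7 of the 9 and higher in 2, with a median of -0.45. The erythroid sum had the same highest and lowest libraries as *Hamp*, with a ratio of 2.36 between them instead of 49.0, and its part in the result was not tested. None of the markers found was listed at 0 in any library.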

How the data were processed

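The authors sequenced total RNA of 4 rat livers (left lateral lobe), 1 library per condition, and conditions were taken from the sample labels. The authors trimmed the paired-end reads, mapped them to rn6 with HISAT2, sorted them with SAMtools, and quantified them with StringTie on the refGene annotation. Whether strand was used in quantification is not given in the sources used here. The deposited tables give the coverage signal per gene (average reads per base over exons, not scaled for depth), FPKM values normalized by StringTie, and TPM, a signal scaled so that the assembled rows add up to 1000000, with annotated rows on the same scale. The files used here hold no read counts, so no counting interval was calculated.

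Assembled rows and annotated rows of 200 bases or shorter were left out, and TPM values were summed per gene ID, which left 16992 genes. Calls followed the rule of the study (above 2 TPM in the larger library and more than 2-fold apart), without a pseudocount. Percentages of all genes refer to genes with TPM values higher than 2 in the state that must be higher. No test was made, since each condition has 1 library. The rule was run on simulated data before use only to check that it was coded correctly, which does not measure how rats differ. The 10 genes and the lists (6 of iron metabolism and 5 of cell types) were chosen with earlier results of these data known. Named genes are the 10 genes, the 3 most abundant and the called members of each list, and the 5 genes most like *Hamp*. *Hjv*, *Bmp2*, *Cp*, *Ncoa4*, *Hmox2*, and *Cd163* fall outside this rule and were named after their values were seen. The same holds for *Id3*, *Id4*, *Bambi*, *Smad1*, *Bmpr2*, *Smad4*, *Smad5*, *Jak2*, *Steap4*, *Slc39a8*, and *Fbxl5*. Promoters were those of RefSeq on GRCr8, and no coordinates were converted between builds. In all, 13 alternatives were tried, covering the TPM and fold limits, a pseudocount, scaling, FPKM, the length filter, rows of 1 symbol, and the control. Python 3.11.15, numpy 2.4.6, pandas 2.3.3, and matplotlib 3.10.9 were used.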

Additional observations from a re-analysis of the deposited data

Results flagged for a closer look

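Among the 10 genes and the 66 further iron genes, those with TPM values higher than 2 in every library were screened for movement in opposite directions with the 2 agents, each by more than 1.25-fold from its own control. In 4 genes this was the case. As each condition has 1 library, none of these differences between agents was tested. *Tfrc* had log2 changes of 0.97 with sevoflurane and -0.34 with desflurane. *Gdf15* had log2 changes of 1.15 with sevoflurane and -0.99 with desflurane. *Il6st* had log2 changes of -0.39 with sevoflurane and 0.75 with desflurane. *Cd163*, the scavenger receptor for hemoglobin and haptoglobin on macrophages, had log2 changes of -0.43 with sevoflurane and 0.52 with desflurane. The sum of the Kupffer cell markers went from 677 to 408 TPM with sevoflurane and from 530 to 622 with desflurane. Of these 8 markers, 6 were higher and 2 lower with desflurane against its own control. Against the sevoflurane control, 2 were higher and 6 lower after 6 h of desflurane, with a sum of 622 beside 677 TPM. In *Tfrc* and *Gdf15*, the desflurane control was higher than the sevoflurane control by log2 differences of 0.76 and 1.69. Against the control of the other agent, *Tfrc* had log2 changes of 0.21 with sevoflurane and 0.42 with desflurane, and *Gdf15* had changes of -0.54 and 0.70, so that both of its directions turned. *Il6st* had changes of -0.18 and 0.54 and *Cd163* of -0.33 and 0.43 in these comparisons, the same directions as with the own controls.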

How the results depend on the processing

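No paired analysis was possible because each condition has 1 library, and for the same reason no replicate could be left out. Over the 13 alternatives, *Hamp* kept its direction in each comparison. Its log2 change ranged from -5.61 to -4.83 with desflurane and from -1.75 to -0.96 with sevoflurane, the latter being the value against the desflurane control, which is not a call. Sevoflurane 6 h against the desflurane control became a call for *Hamp* after median-of-ratios scaling (-1.04) and after the annotated rows were rescaled (-1.01), with 2 of the 10 genes called in either case (5.27% and 5.61% of all genes). In the following, counts are of the 10 genes and of the 66 further genes. Percentages are of all genes over the TPM limit in either library, called in either direction. With a 1.5-fold limit, 2 and 7 were called for sevoflurane against its own control (16.1%), 3 and 12 for desflurane (14.6%), and 3 and 10 for sevoflurane 6 h against the desflurane control (15.9%). With this limit there were 3 and 2 calls between the controls (7.94%), 6 of the 66 for desflurane 6 h against the sevoflurane control (14.2%), and 8 of the 66 between the 6 h livers (13.0%). With a 3-fold limit, 2 of the 66 were called for sevoflurane (195 of 9754 genes), 1 for desflurane (1.36%), 1 for desflurane 6 h against the sevoflurane control (1.28%), and 0 between the 6 h livers (1.22%), while 0 of the 10 were called for sevoflurane 6 h against the desflurane control (1.74%) and 0 between the controls (0.923%). With 1 added to the TPM values, 2 of the 66 were called for sevoflurane (3.68%) and 0 of the 10 between the controls (1.54%), where *Id1* had a log2 difference of -0.90. With FPKM, 2 of the 66 were called between the 6 h livers (2.50%), and with the other control 2 of the 66 for desflurane (4.42%). The counts with the values of the report were 4, 4, 3, 2, 1, and 1 of the 66 for sevoflurane, desflurane, sevoflurane 6 h against the desflurane control, desflurane 6 h against the sevoflurane control, the controls, and the 6 h livers, and 1 of the 10 in each. The other 118 counts stayed within 1.5 times. Among the 10 genes, the sign of a log2 change turned 23 times, 13 of them with FPKM and 3 with the other control, and 0 of these were calls with the values of the report. The turns with the other control were *Tfr2* with sevoflurane (0.01 to -0.04), and *Tfrc* (-0.34 to 0.42) and *Id1* (0.94 to -0.12) with desflurane. Depth sets no interval here, since the files used hold no read counts, and the difference between rats is seen only in the pair of controls.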
